A study of Saccharomyces cerevisiae with 16 samples.

Results

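The core autophagy genes described here are 10 genes of budding yeast chosen by name and systematic name, *ATG1* (YGL180W), *ATG3* (YNR007C), *ATG4* (YNL223W), *ATG5* (YPL149W), *ATG7* (YHR171W), *ATG8* (YBL078C), *ATG9* (YDL149W), *ATG12* (YBR217W), *ATG13* (YPR185W) and *ATG14* (YBR128C), out of 7126 features in the count table. All 10 were found and all 10 passed the filter on low counts, the lowest count of any of them in any library being 103. RNA was sequenced from strain YJB622, a MATa haploid of the BY4741 background with the alleles *ura3*∆0, *leu2*∆0, *his3*∆0 and *met15*∆0, an epitope-tagged Hcm1-3HA-HIS3, and deletions of the calcineurin target *CRZ1* (*crz1*∆::KanMx) and of the osmotic stress kinase *HOG1* (*hog1*∆::LEU2). Cells grew in synthetic medium in which ammonium chloride was the nitrogen source. They received either ET buffer (ethanol and Tween-20, the solvent control) or 1 µg/ml FK506, a drug that binds the prolyl isomerase Fpr1 and so blocks the phosphatase calcineurin (CN), for 15 min, and then 200 mM CaCl2, which activates CN. Samples taken 0, 10, 30 and 60 min after CaCl2 gave 8 groups of 2 libraries, 16 libraries in all, from 2 time courses per pre-treatment. The mutations were carried by every group, and no group without CaCl2 at the later times was analysed here, so the effect of time in culture and the effect of CaCl2 cannot be told apart.

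Autophagy encloses cytoplasm in a new membrane, the autophagosome, and delivers it to the vacuole for breakdown. In yeast the Atg1 kinase and its regulatory partner Atg13 start the process when the TORC1 kinase is inactive, Atg14 directs a phosphatidylinositol 3-kinase complex to the site of assembly, and vesicles carrying the membrane protein Atg9 supply lipid. A pair of ubiquitin-like systems then act: Atg7 activates both Atg12, which is joined to Atg5, and Atg8, which is trimmed by Atg4 and transferred by Atg3 to a lipid of the growing membrane. *ATG8* is known as the member of this group whose mRNA rises steeply when yeast are starved of nitrogen.

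Each gene is a single coding exon in R64, the genome assembly also called sacCer3. The promoter windows, from 250 bases before to 50 bases after the start codon, are shown for *ATG8* and *ATG9*, which held matches to motifs of stress and nitrogen factors, and for *ATG7* and *ATG12*, which held none and of which *ATG7* was called higher at 60 min in ET and *ATG12* was not. *ATG8* lies on chromosome II at 80378-80731 on the minus strand (window chrII:80682-80981), *ATG9* on chromosome IV at 184925-187918 on the plus strand (window chrIV:184675-184974), *ATG7* on chromosome VIII at 445713-447605 on the plus strand (window chrVIII:445463-445762), and *ATG12* on chromosome II at 657832-658392 on the plus strand (window chrII:657582-657881, of which 19 bases belong to the neighbouring gene *YBP1*). The other members are *ATG1* on chromosome VII (160065-162758, plus strand), *ATG3* on XIV (639182-640114, minus), *ATG4* on XIV (227370-228854, plus), *ATG5* on XVI (271310-272194, plus), *ATG13* on XVI (907218-909434, plus) and *ATG14* on II (493081-494115, minus). The sequences were read from the RefSeq copy of R64 on the coding strand, 5′ to 3′, and capitals mark the motif matches.
ATG8: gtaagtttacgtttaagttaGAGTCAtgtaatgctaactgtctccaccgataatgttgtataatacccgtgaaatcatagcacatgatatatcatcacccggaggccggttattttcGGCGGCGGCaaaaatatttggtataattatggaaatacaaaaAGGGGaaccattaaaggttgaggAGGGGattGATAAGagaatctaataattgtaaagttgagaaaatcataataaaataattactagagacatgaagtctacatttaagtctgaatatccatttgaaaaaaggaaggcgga
ATG9: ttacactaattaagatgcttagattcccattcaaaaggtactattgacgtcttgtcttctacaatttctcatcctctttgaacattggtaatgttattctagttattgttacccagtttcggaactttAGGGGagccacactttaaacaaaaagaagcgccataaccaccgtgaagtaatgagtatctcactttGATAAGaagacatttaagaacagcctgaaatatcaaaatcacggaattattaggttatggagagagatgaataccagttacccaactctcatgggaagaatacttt
ATG7: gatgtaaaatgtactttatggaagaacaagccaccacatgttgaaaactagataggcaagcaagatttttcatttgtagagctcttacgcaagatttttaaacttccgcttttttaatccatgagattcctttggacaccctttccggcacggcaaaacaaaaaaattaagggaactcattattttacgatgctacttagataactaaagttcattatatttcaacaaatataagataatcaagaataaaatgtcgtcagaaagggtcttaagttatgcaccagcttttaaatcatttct
ATG12: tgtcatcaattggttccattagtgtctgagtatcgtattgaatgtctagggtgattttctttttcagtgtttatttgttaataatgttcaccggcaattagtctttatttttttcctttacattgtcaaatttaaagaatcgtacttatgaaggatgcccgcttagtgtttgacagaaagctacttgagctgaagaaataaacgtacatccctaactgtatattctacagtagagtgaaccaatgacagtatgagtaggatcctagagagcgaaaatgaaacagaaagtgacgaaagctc

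4 motifs were searched on both strands. AGGGG, the stress response element bound by Msn2 and Msn4 and also by Rph1, was in 21.6% of 6020 yeast promoter windows of the same length and in 2 of the 10 members. In *ATG8* its matches began 91 and 68 bases before the start codon, and in *ATG9* its match began 122 bases before it. GATAAG, read by GATA factors of nitrogen control, was in 14.6% of windows and in 3 members, *ATG4*, *ATG8* and *ATG9*. TGACTC, the core of Gcn4 sites, was in 7.96% of windows and in 3 members, *ATG4*, *ATG8* and *ATG13*, the *ATG13* match running into the start codon. GCCGCC, the core of the URS1 element bound by the repressor Ume6, was in 5.12% of windows and in *ATG8* only among the members, as a pair of overlapping matches written GGCGGCGGC on the coding strand. *ATG8* was thus the only member that held all 4, and *ATG1*, *ATG3*, *ATG5*, *ATG7*, *ATG12* and *ATG14* held none. A match describes these letters in these windows and was not tested as a site.

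The libraries held 11221758 to 11970166 counts, so that 3 counts corresponded to at most 0.267 CPM (counts per 1000000 counts of the library). Of the genes deleted in every group, *HOG1* had 0 counts in all 16 libraries, which allows up to 0.267 CPM, and *CRZ1* had 2 counts in all libraries together. The MATa genes *STE2*, *BAR1*, *MFA1* and *MFA2* were at 79.8 to 1601 CPM, and the MATalpha genes *MF(ALPHA)1*, *MF(ALPHA)2*, *STE3* and *SAG1* at 1.69 to 89.8 CPM, the ranges overlapping through *SAG1*. The small cytoplasmic RNA *SCR1*, the most abundant feature, took 4.03 to 8.67% of counts and its mean share went from 4.77% at 0 min to 8.07% at 60 min in ET and from 4.42% to 6.11% in FK506. No call of a member changed when the 10 most abundant genes were left out of the fit. In bulk RNA, fewer cells using a gene and less of its RNA per cell cannot be told apart, and all levels are relative to the other RNAs of the library.

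The main pattern was a rise of most members that was called at 10 min with and without FK506 and that differed between the pre-treatments at 30 and 60 min. In ET, 8 of the 10 members were higher at 60 min than at 0 min, against 33.6% of all genes tested, and 6 of them by a log2 change of at least 1, against 10.1% of all genes, led by *ATG8* at 2.46 ± 0.17 (SE). In FK506 the same comparison called none of the 10, against 28.8% of all genes in either direction, and their log2 changes at 60 min ran from -0.22 to 0.20. The log2 changes of *ATG5* and *ATG12* at 60 min in ET were -0.04 and 0.26 and did not pass the test, and whether they differed from those of the other members was not tested. These statements rest on a limma-voom fit over 6206 genes with Benjamini-Hochberg adjusted p under 0.05, and with 2 libraries a group an exact permutation test of a single gene could not go below p = 0.333.

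**Figure D1:**
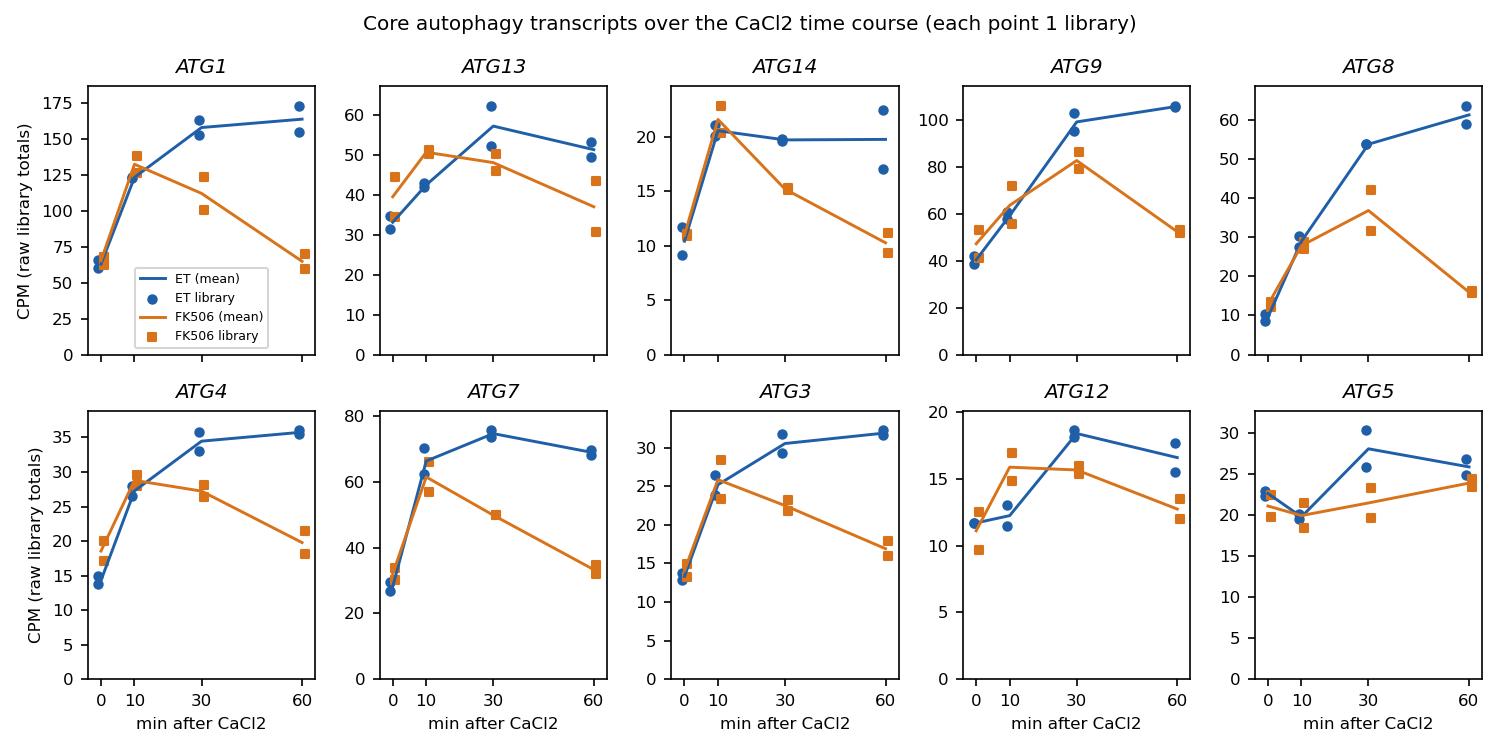
CPM of the 10 genes (vertical axes, each starting at 0) against minutes after CaCl2, with each point 1 library and lines joining the means of 2 libraries, for ET (blue circles) and FK506 (orange squares). *ATG8* climbed to 59.1 and 63.7 CPM at 60 min in ET and was at 15.7 and 16.2 CPM in FK506, while *ATG5* stayed between 18.4 and 30.3 CPM in all 16 libraries.

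*ATG8* encodes the ubiquitin-like protein that coats the forming membrane. In ET its level was 8.60 and 10.45 CPM at 0 min, 27.5 and 30.4 CPM at 10 min, 53.8 and 53.9 CPM at 30 min, and 59.1 and 63.7 CPM at 60 min. In FK506 it was 13.4 and 12.1 CPM at 0 min, 27.0 and 28.7 CPM at 10 min, 42.1 and 31.7 CPM at 30 min, and 16.2 and 15.7 CPM at 60 min. Every ET library at 10, 30 and 60 min was above both ET libraries at 0 min, and at 30 and 60 min the ET libraries lay above the FK506 libraries without overlap. Its log2 change from 0 min in ET was 1.54 ± 0.18 at 10 min, 2.30 ± 0.17 at 30 min and 2.46 ± 0.17 at 60 min (SE, adjusted p = 1.19e-06, 1.58e-09 and 5.53e-10). In FK506 the log2 change was 1.07 ± 0.16 at 10 min and 1.31 ± 0.16 at 30 min (adjusted p = 3.16e-05 and 2.06e-06), and 0.20 ± 0.18 at 60 min (adjusted p = 0.446). From 30 to 60 min in FK506 *ATG8* fell by 1.11 on the log2 scale (SE 0.15, adjusted p = 9.80e-06). The 0 min levels, lower in ET, differed by a log2 of -0.40 ± 0.19 (adjusted p = 0.312), a difference that enters both changes. Compared directly at 60 min, without the 0 min libraries, ET was above FK506 by 1.85 ± 0.13 on the log2 scale (adjusted p = 1.90e-09).

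*ATG4* and *ATG3* encode the protease and the transfer enzyme that act on Atg8, and *ATG7* the activating enzyme shared with Atg12. *ATG7* was at 26.8 and 29.4 CPM at 0 min in ET, 62.4 and 70.2 CPM at 10 min, 75.6 and 73.7 CPM at 30 min, and 69.6 and 68.0 CPM at 60 min. In FK506 *ATG7* was at 30.2 and 33.9 CPM at 0 min, 56.9 and 65.99 CPM at 10 min, 49.9 and 49.8 CPM at 30 min, and 31.8 and 34.7 CPM at 60 min, so that only the 60 min libraries overlapped those at 0 min. Its log2 change in ET was 1.17 ± 0.10 at 10 min and 1.05 ± 0.09 at 60 min (SE, adjusted p = 2.19e-08 and 2.23e-08), and in FK506 0.88 ± 0.09 at 10 min (adjusted p = 5.22e-07) and -0.07 ± 0.10 at 60 min (adjusted p = 0.685). *ATG4* was at 13.7 to 14.9 CPM at 0 min and 35.5 to 36.0 CPM at 60 min in ET, and at 17.1 to 20.0 and 18.1 to 21.4 CPM in FK506. *ATG3* was at 12.9 to 13.8 CPM at 0 min and 31.6 to 32.3 CPM at 60 min in ET, and at 13.3 to 14.9 and 15.95 to 17.9 CPM in FK506. Both rose in ET at 60 min, *ATG4* by a log2 of 1.09 ± 0.13 and *ATG3* by 1.02 ± 0.13, and both had risen at 10 min in FK506, by 0.58 ± 0.12 and 0.81 ± 0.13. The smaller rise of *ATG4* at 30 min in FK506, 0.36 ± 0.12 (adjusted p = 0.0225), was not called without FK506 0 min replicate 1 (adjusted p = 0.247) or FK506 30 min replicate 2 (adjusted p = 0.126). That of *ATG3* at 30 min, 0.47 ± 0.14 (adjusted p = 0.00746), was not called without FK506 0 min replicate 2 (adjusted p = 0.0642).

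*ATG1* and *ATG13* encode the kinase that starts autophagosome formation and its regulatory subunit. *ATG1* was at 59.8 and 65.9 CPM at 0 min in ET, 123.2 and 123.0 CPM at 10 min, 163 and 153 CPM at 30 min, and 173 and 154 CPM at 60 min. In FK506 it was at 62.4 and 68.0 CPM at 0 min, 126 and 138 CPM at 10 min, 124 and 100.4 CPM at 30 min, and 70.1 and 59.4 CPM at 60 min, overlapping its 0 min libraries. The log2 change of *ATG1* at 10 min was 0.90 ± 0.10 in ET and 0.97 ± 0.10 in FK506, and at 60 min 1.15 ± 0.10 in ET (SE, adjusted p = 1.96e-08) and -0.13 ± 0.11 in FK506 (adjusted p = 0.426). *ATG13* was at 31.5 and 34.9 CPM at 0 min in ET, 42.1 and 43.1 CPM at 10 min, 62.4 and 52.2 CPM at 30 min, and 53.3 and 49.5 CPM at 60 min. In FK506 *ATG13* was at 34.6 and 44.6 CPM at 0 min, 50.3 and 51.2 CPM at 10 min, 46.0 and 50.3 CPM at 30 min, and 30.6 and 43.5 CPM at 60 min, the pairs at 0 and 60 min being the most widely spread of its FK506 pairs. Its log2 change in ET was 0.58 ± 0.15 at 30 min (adjusted p = 0.00236) and 0.39 ± 0.15 at 60 min (adjusted p = 0.0284). The call at 60 min was lost without ET 0 min replicate 1, ET 0 min replicate 2 or ET 60 min replicate 1 (adjusted p = 0.0769, 0.127 and 0.189), and that at 30 min without ET 30 min replicate 1, where the log2 change was 0.38 (adjusted p = 0.0521). No change of *ATG13* from 0 min was called in FK506, though that at 10 min, 0.31 (adjusted p = 0.0812), was called with the time course as a fixed term (0.30, adjusted p = 0.0337). The value at 60 min was -0.22 ± 0.15 with all libraries and -0.51 (adjusted p = 0.0373) without FK506 60 min replicate 2.

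*ATG14*, the autophagy-specific subunit of the PI3-kinase complex, was at 9.11 and 11.7 CPM at 0 min in ET, 20.1 and 21.1 CPM at 10 min, 19.8 and 19.7 CPM at 30 min, and 17.0 and 22.5 CPM at 60 min. In FK506 it was at 10.9 and 11.0 CPM at 0 min, 22.9 and 20.4 CPM at 10 min, 15.3 and 15.1 CPM at 30 min, and 11.2 and 9.37 CPM at 60 min. Its mean was highest at 10 min under both pre-treatments, with log2 changes of 0.92 ± 0.17 in both ET and FK506 (SE, adjusted p = 2.09e-04 and 2.14e-04). At 60 min the change in ET was 0.69 ± 0.17 (adjusted p = 0.00209), and 0.46 (adjusted p = 0.0649) without ET 0 min replicate 1, while in FK506 it was -0.22 ± 0.20 (adjusted p = 0.437).

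*ATG9*, whose product is the membrane protein that travels on vesicles to the assembly site, went on rising after 10 min in ET, by a log2 step of 0.61 ± 0.10 to 30 min (SE, adjusted p = 9.95e-05). The same step in FK506 was 0.24 ± 0.10, not called (adjusted p = 0.0833), but called on raw library totals (0.38, adjusted p = 0.00531). *ATG9* was at 38.6 and 42.2 CPM at 0 min in ET, 57.8 and 60.7 CPM at 10 min, 95.2 and 103.2 CPM at 30 min, and 105.7 and 106.0 CPM at 60 min. In FK506 it was at 41.3 and 53.2 CPM at 0 min, 55.5 and 71.8 CPM at 10 min, 86.5 and 79.0 CPM at 30 min, and 53.1 and 51.7 CPM at 60 min, within the spread of the libraries at 0 min. The log2 change in ET was 0.48 ± 0.12 at 10 min, 1.095 ± 0.11 at 30 min and 1.15 ± 0.11 at 60 min (SE, adjusted p = 0.00188, 9.90e-08 and 4.57e-08). In FK506 it was 0.38 ± 0.11 at 10 min (adjusted p = 0.00968), 0.61 ± 0.11 at 30 min (adjusted p = 1.43e-04) and 0.03 ± 0.12 at 60 min (adjusted p = 0.855). The call at 10 min in FK506 was lost without FK506 0 min replicate 1, where the log2 change was 0.23 (adjusted p = 0.160), or without FK506 10 min replicate 2, where it was 0.22 (adjusted p = 0.183).

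*ATG12* and *ATG5* encode the ubiquitin-like protein and its target in the other conjugate, and neither was called at 60 min. *ATG5* was at 23.0 and 22.3 CPM at 0 min in ET, 20.1 and 19.5 CPM at 10 min, 25.8 and 30.3 CPM at 30 min, and 24.9 and 26.8 CPM at 60 min. In FK506 *ATG5* was at 19.7 and 22.5 CPM at 0 min, 21.4 and 18.4 CPM at 10 min, 23.2 and 19.7 CPM at 30 min, and 23.4 and 24.3 CPM at 60 min. Its largest log2 change from 0 min was -0.26 ± 0.13, at 10 min in ET (SE, adjusted p = 0.0937), and the 95% interval of its change at 60 min ran from -0.31 to 0.22 in ET and from -0.21 to 0.33 in FK506, so that no bound reached 1. At 30 min in ET its change of 0.11 was not called (adjusted p = 0.452), and on raw library totals, which put the median of all genes at 0.21, it was 0.31 (adjusted p = 0.0323). *ATG12* was at 11.7 and 11.7 CPM at 0 min in ET, 11.5 and 13.03 CPM at 10 min, 18.2 and 18.7 CPM at 30 min, and 15.5 and 17.7 CPM at 60 min. In FK506 *ATG12* was at 12.5 and 9.71 CPM at 0 min, 16.9 and 14.9 CPM at 10 min, 15.99 and 15.4 CPM at 30 min, and 12.0 and 13.5 CPM at 60 min. It was called at 30 min in ET, with a log2 change of 0.45 ± 0.15 (adjusted p = 0.0143), and at 10 min in FK506, with 0.46 ± 0.16 (adjusted p = 0.0219). Both calls were lost by leaving out single libraries: the ET call without ET 0 min replicate 1 or ET 30 min replicate 2 (adjusted p = 0.0981 and 0.0729), and the FK506 call without FK506 10 min replicate 1 or FK506 0 min replicate 2 (adjusted p = 0.167 and 0.283). The 2 ET libraries at 60 min lay above both at 0 min in CPM, yet the scaled log2 change, 0.26 ± 0.15, was not called (adjusted p = 0.138). When raw totals replaced the TMM scaling, and the median of all genes at 60 min in ET moved from 0.01 to 0.25 with them, the *ATG12* change was 0.50 (adjusted p = 0.00805), that is 0.25 above that median.

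**Figure D2:**
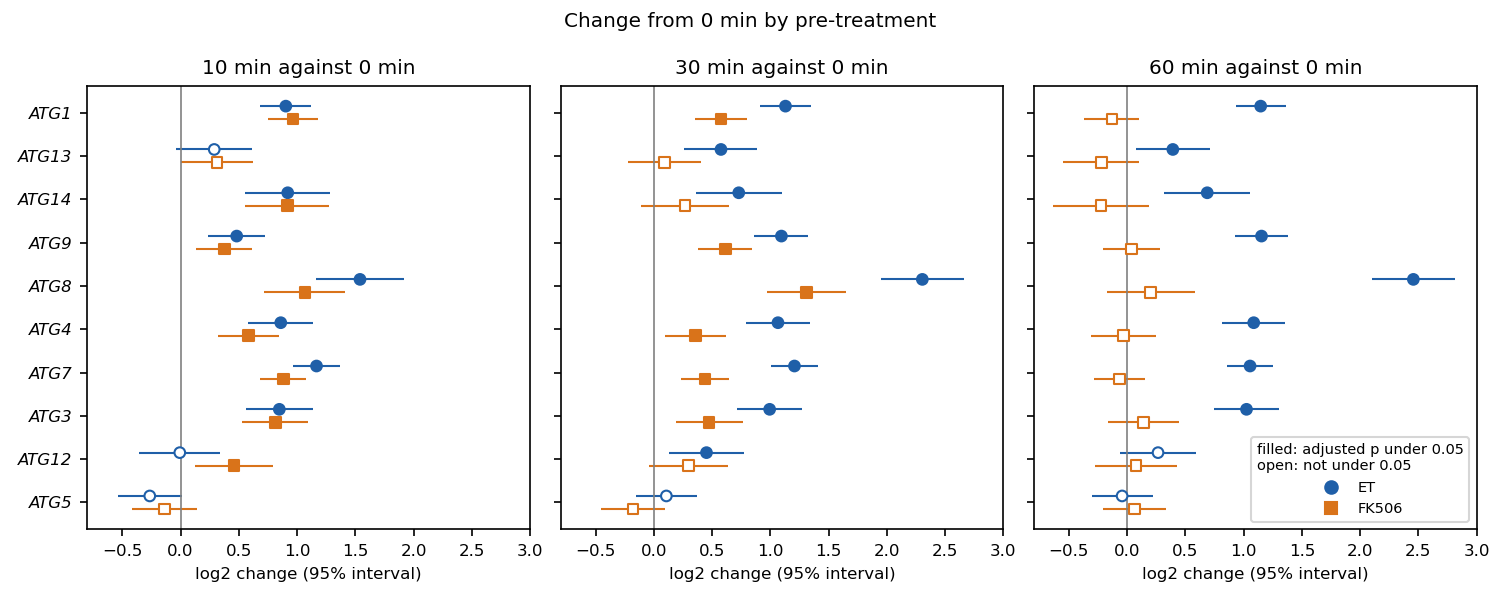
Log2 change from 0 min (horizontal axes) at 10, 30 and 60 min for each gene, with 95% intervals from the fit, in ET (blue circles) and FK506 (orange squares). Filled points passed an adjusted p of 0.05, and all 10 FK506 points at 60 min are open, between -0.22 and 0.20.

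Counted over the members, the early rise was called under both pre-treatments. At 10 min, 7 of 10 were called higher in ET, where 26.6% of all genes tested were, and 8 of 10 in FK506, against 24.4% of all genes. At 30 min, 9 of 10 were higher in ET, against 33.1% of all genes, and 6 of 10 in FK506, against 24.5%. At 60 min, beside the 8 members higher in ET, none was lower, against 34.7%. Raw library totals changed the split of all genes at 60 min in ET to 47.9% higher and 24.7% lower, and called 9 members higher. In FK506 at 60 min 13.1% of all genes were called higher, a share near the 0 of 10 members called, and 0 members had an unadjusted p under 0.05. edgeR and DESeq2 also called 0. The median log2 change of the members in ET was 0.85, 1.03 and 1.04 at 10, 30 and 60 min, and in FK506 0.70, 0.40 and 0.0029, where the median of all genes was between -0.03 and 0.01 in each comparison. The comparisons within a pre-treatment share their 0 min libraries, and so do not give independent counts.

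Steps between neighbouring times were also tested. From 10 to 30 min in ET, 4 of 10 members rose further, *ATG5*, *ATG8*, *ATG9* and *ATG12*, against 18.9% of all genes, with log2 steps of 0.37, 0.76, 0.61 and 0.46. The steps of *ATG5* and *ATG12* were not called without ET 10 min replicate 1 (adjusted p = 0.121 and 0.248), which left 2 members. From 10 to 30 min in FK506, 4 of 10 fell, *ATG1*, *ATG3*, *ATG7* and *ATG14*, against 18.9%. The largest of these was *ATG14*, which fell by 0.65 on the log2 scale (SE 0.16, adjusted p = 0.00355). *ATG8* and *ATG9* moved the other way, each by a log2 step of 0.24, not called (adjusted p = 0.157 and 0.0833). On raw library totals both were called higher (0.39 and 0.38, adjusted p = 0.0183 and 0.00531), and the fall of *ATG3* was not called (adjusted p = 0.201). That scaling put 12.4% of all genes lower and 35.7% higher in this step. The calls of *ATG1*, *ATG3* and *ATG14* were each lost without 1 of the FK506 libraries at 10 or 30 min, and that of *ATG7*, a fall of 0.44, was kept. From 30 to 60 min in ET, 0 of 10 were called by limma in either direction, against 20.5% of all genes, and 0 had an unadjusted p under 0.05. From 30 to 60 min in FK506, 7 of 10 fell, against 17.8%, the exceptions being *ATG5*, *ATG12* and *ATG13*. Between *ATG8* at 1.11 and *ATG3* at 0.33, the falls of the other 5 were 0.71 for *ATG1*, 0.58 for *ATG9*, 0.50 for *ATG7*, 0.49 for *ATG14* and 0.39 for *ATG4* on the log2 scale. The falls of *ATG3*, *ATG4* and *ATG14* were each lost in the test without 1 of several libraries.

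Whether FK506 altered the response was asked by the difference between the changes in ET and in FK506, an interaction term. Before CaCl2, 0 of 10 members differed between the pre-treatments by limma, against 1.56% of all genes in either direction, and 1, *ATG4*, had an unadjusted p under 0.05. The 0 min values of 8 of the 10 were nonetheless lower in ET, with a median log2 difference of -0.11, and each such gap adds to the difference between the changes. For the change at 10 min, 0 of 10 differed, against 0.0806% of all genes, again with 1 member at an unadjusted p under 0.05, *ATG7*. For the change at 30 min, 6 of 10 were higher in ET, against 14.0% of all genes, and for the change at 60 min, 8 of 10 were higher, against 24.0%, and none lower, against 27.9%. The median difference of the members was 0.02, 0.50 and 1.01 at 10, 30 and 60 min.

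Comparing the pre-treatments directly at each time, without the 0 min libraries, gave smaller values for most of these genes. At 10 min 0 of 10 members were called by limma, against 6.27% of all genes in either direction. At 30 min 8 of 10 were higher in ET, against 19.5% of all genes, now with *ATG5* (0.42 ± 0.12, adjusted p = 0.00910) and *ATG14* (0.40 ± 0.15, adjusted p = 0.0399) among them. *ATG8* was higher by 0.59, *ATG4* by 0.36 and *ATG9* by 0.29 at 30 min, where their differences in change were 0.99, 0.71 and 0.48. At 60 min 8 of 10 were higher, against 30.4%, and 2 of them, *ATG8* (1.85) and *ATG1* (1.25), by a log2 of at least 1, against 4.90% of all genes, where the difference in change reached 1 for 5 members. *ATG5* was at 0.03 ± 0.12 and *ATG12* at 0.30 ± 0.14 in the direct comparison at 60 min, neither called.

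**Figure D3:**
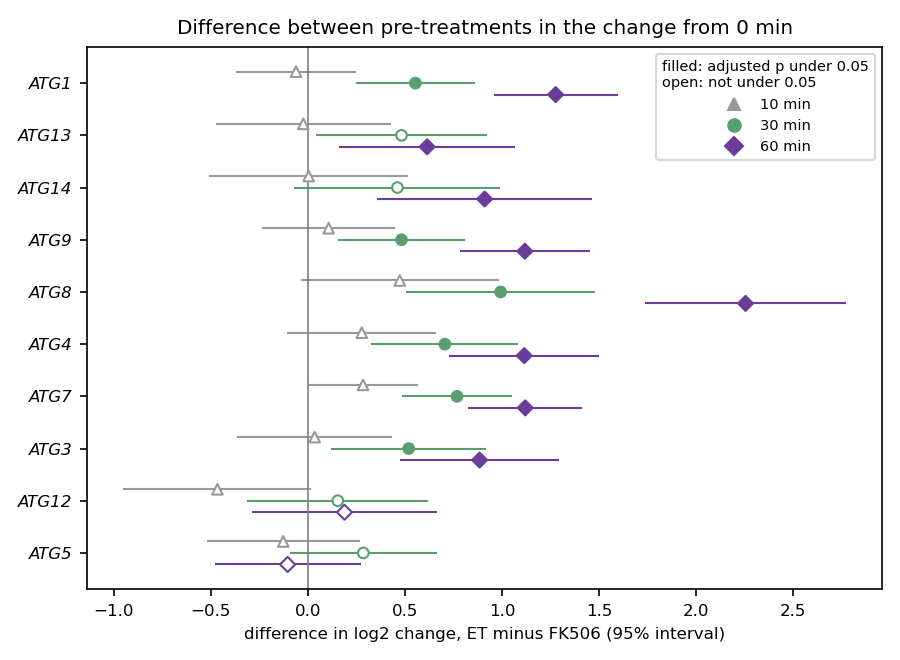
Difference between ET and FK506 in the log2 change from 0 min (horizontal axis, ET minus FK506, with 95% intervals) at 10 min (grey triangles), 30 min (green circles) and 60 min (purple diamonds). No point at 10 min is filled, and at 60 min *ATG8*, at 2.26, lies farthest from 0.

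At 60 min the largest difference was that of *ATG8*, 2.26 with a 95% interval of 1.74 to 2.77 (adjusted p = 5.71e-07). The differences of *ATG1*, *ATG7*, *ATG9* and *ATG4* lay between 1.12 and 1.28 (adjusted p at most 6.20e-05), *ATG14* was at 0.91, *ATG3* at 0.89 and *ATG13* at 0.61. *ATG12*, at 0.19 with an interval of -0.29 to 0.67, and *ATG5*, at -0.10 with an interval of -0.48 to 0.27, were not called. The difference of *ATG13* at 60 min (adjusted p = 0.0236) was not called without ET 60 min replicate 1, FK506 60 min replicate 1, ET 0 min replicate 2 or FK506 0 min replicate 2, the highest adjusted p being 0.180 with a difference of 0.34. That of *ATG14* (adjusted p = 0.00733) was not called without ET 0 min replicate 1 (0.68, adjusted p = 0.0571). At 30 min the count of 6 fell to 3 without ET 0 min replicate 1 or without FK506 0 min replicate 2, the calls lost being those of *ATG1*, *ATG3* and *ATG9*. *ATG4*, *ATG7* and *ATG8* had differences of 0.71, 0.77 and 0.99 on the log2 scale at 30 min, and these calls were kept with any single library left out.

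On a scale of CPM per kilobase of coding sequence, levels can be set beside each other between genes. At 0 min in ET the order was *ATG8* (26.9), *ATG5* (25.6), *ATG1* (23.3), *ATG12* (20.9), *ATG13* (15.0), *ATG7* (14.8), *ATG3* (14.3), *ATG9* (13.5), *ATG14* (10.1) and *ATG4* (9.62). The ranges of neighbours overlapped for *ATG8* and *ATG5*, for the run from *ATG13* to *ATG9*, and for *ATG14* and *ATG4*. At 60 min in ET the level of *ATG8* was 173 CPM per kilobase, ahead of *ATG1* at 60.7, and *ATG5* stood in place 7 at 29.2. At 60 min in FK506 *ATG8* (45.1) and *ATG5* (27.0) again led, with *ATG14* (9.92) last. The coding sequence of *ATG8*, 354 bases, is the shortest of the 10, and levels per kilobase used coding length alone, without untranslated sequence.

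Across the 8 group means of TMM-scaled log2 CPM, the 28 pairs of members other than *ATG5* and *ATG12* had Pearson correlations between 0.625 and 0.980, with a median of 0.897. *ATG12* had a median correlation of 0.786 with the others and *ATG5* one of -0.06. These are descriptions over 8 points that share libraries and scaling, and *ATG5* and *ATG12* were set apart after their values were seen. The 5 genes whose group means followed *ATG8* most closely among the 6206 tested were *YNL115C* (r = 0.997), *YOR289W* (r = 0.994), *RBK1* (r = 0.993), *PXP1* (r = 0.993) and *UGX2* (r = 0.992). *UGX2* had a log2 change at 60 min of 2.63 in ET and 0.54 in FK506, and *YOR289W*, 2.06 and 0.26. *RBK1*, the ribokinase gene, had 0.85 and 0.03, a smaller change in ET.

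The other autophagy genes were read from 8 lists by role, with roles taken from general knowledge of yeast. The lists held 48 genes of which 47 were tested, *ATG16* having been removed by the filter. At 60 min in ET 32 of the 47 were higher and 7 lower, and in FK506 17 were higher and 5 lower. The difference between the changes at 60 min was called higher in ET for 28 and lower for 3. At 10 min 31 were higher and 4 lower in ET, the same counts as in FK506, and the difference was called for 0 of the 47 by limma. Of all genes tested, 33.6% were higher and 34.7% lower at 60 min in ET, and 13.1% higher and 15.7% lower in FK506. For the difference at 60 min the shares were 24.0% higher and 27.9% lower. At 10 min 26.6% were higher and 31.8% lower in ET, and 24.4% and 30.2% in FK506. The difference at 10 min was called for 0.0806% in either direction.

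**Figure D4:**
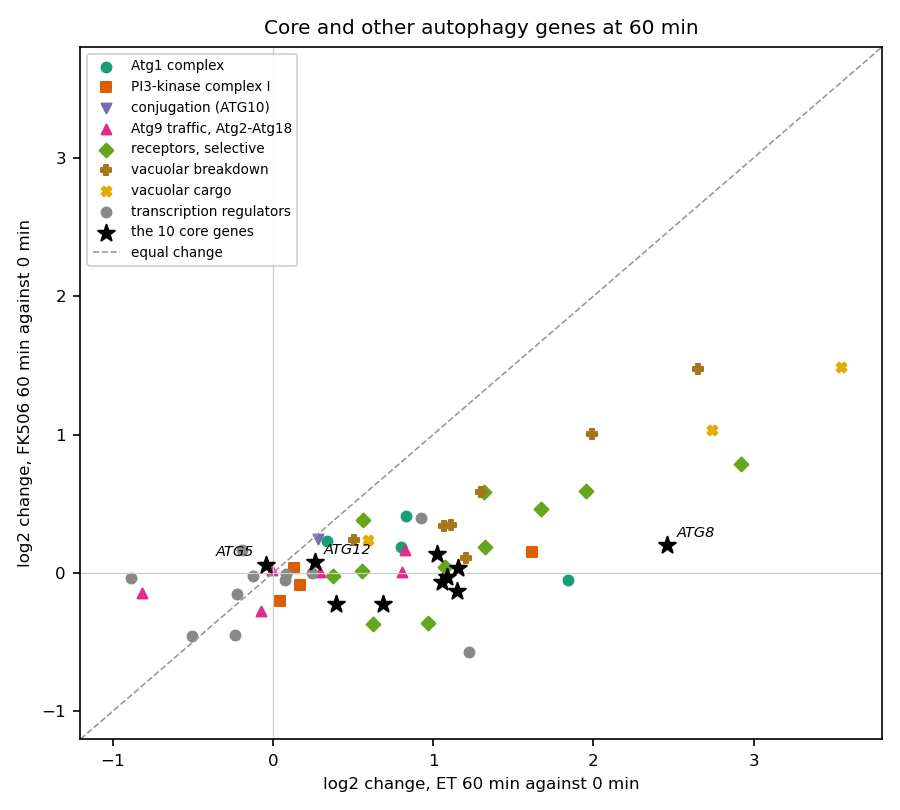
Log2 change at 60 min in ET (horizontal axis) and in FK506 (vertical axis) for the 10 core genes (black stars) and 47 other autophagy genes coloured by role, each point 1 gene from the fit. *ATG8* lies at 2.46 and 0.20, far below the dashed line of equal change, and *AMS1*, *PRB1* and *PEP4* lie to the right with FK506 changes of 1.49, 1.47 and 1.00.

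For each list in turn, the share of all genes higher at 60 min in ET was 33.6%. Around the Atg1 kinase, 4 of 4 scaffold genes were higher at 60 min in ET, from *ATG17* at 0.34 ± 0.13 to *ATG29* at 1.84 ± 0.22 (log2, SE). *ATG29*, which encodes a subunit of the Atg17 scaffold, went from 6.09 ± 0.47 to 25.8 ± 0.67 CPM in ET and, after FK506, from 10.0 ± 2.47 to 10.3 ± 0.25 CPM (SD, n = 2). Beside *ATG14*, of the 4 other genes of the PI3-kinase complex only *ATG38* was called, at 1.62 ± 0.11 in ET and 0.15 ± 0.13 in FK506, the latter with an adjusted p of 0.427. Of 6 genes of Atg9 traffic and the Atg2-Atg18 complex, 3 were higher in ET, led by the lipid transfer protein gene *ATG2* at 0.82 ± 0.08. *ATG27*, which encodes a membrane protein of Atg9 vesicle supply, fell by 0.82 on the log2 scale in ET and was at -0.15 ± 0.07 in FK506. Thus *ATG9* and *ATG27* moved in opposite directions in ET. *ATG10*, the transfer enzyme for Atg12, was not called, at 0.28 in ET and 0.25 in FK506.

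All 11 genes listed under receptors and selective autophagy were higher at 60 min in ET, against 33.6% of all genes. Their changes ran from *ATG26* at 0.38 ± 0.07 to *ATG39* at 2.92 ± 0.19. *ATG39*, the receptor for the nuclear envelope, went from 6.23 ± 1.37 to 55.0 ± 1.61 CPM in ET and, after FK506, from 8.39 ± 0.99 to 15.7 ± 0.22 CPM (SD, n = 2). In FK506 5 of the 11 were higher and 2 lower, against 13.1% and 15.7% of all genes. All 7 genes of breakdown in the vacuole were higher in ET and 6 of them in FK506, against 33.6% and 13.1% of all genes. *PEP4*, the vacuolar aspartyl protease, rose by 1.99 ± 0.07 in ET and 1.00 ± 0.07 in FK506, and *PRB1*, the vacuolar serine protease, by 2.65 ± 0.08 and 1.47 ± 0.08 (log2, SE). The 3 vacuolar cargo genes were higher under both pre-treatments, against the same shares of all genes. *AMS1*, the alpha-mannosidase carried by selective autophagy, rose by 3.55 ± 0.12 in ET and 1.49 ± 0.12 in FK506. The 3 lists of Atg1 scaffold, PI3-kinase complex and Atg9 traffic had 1 of 4, 0 of 4 and 0 of 6 genes higher in FK506 at 60 min. These counts are near the 13.1% of all genes that were higher. No difference between lists was tested.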

How the data were processed

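Per the labels, rRNA-depleted, strand-specific RNA-seq libraries were made from 16 samples. The authors aligned reads with TopHat2 (version 2.1.1) to sacCer3 and deposited raw counts per gene, not normalized; the study's methods name HTSeq as the counter and the submitters' processing notes name featureCounts (Subread 1.5.3), so which made the table was not settled. Of the 7126 features, 6048 were matched to RefSeq R64 by systematic name, 31 by symbol and 1047 not at all; the 10 members were matched by systematic name. The 10 members lie in no overlapping gene in that annotation.

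Counts were tested with limma 3.58.1 (voom) in R 4.3.3, after filtering in edgeR 4.0.16 (filterByExpr, 6206 of 7126 features kept) and TMM scaling (factors 0.910 to 1.10). 1 fit held all libraries, with group, the replicate number as the batch term that the study's methods call for but do not define, and the correlation within a time course (-0.117), leaving 7 residual degrees of freedom. Tests were two-sided and Benjamini-Hochberg adjusted over all genes tested. CPM are counts per 1000000 counts of the raw library total, with no TMM scaling, so ratios of CPM differ from fitted changes. In ET the TMM factors were 0.910 and 0.925 at 0 min and 1.06 and 1.10 at 60 min, so CPM ratios there exceed the fitted folds. At 60 min in ET the ratio of mean CPM was 6.44 for *ATG8* and 1.14 for *ATG5*, where the fitted folds were 5.49 and 0.97. Alternatives were edgeR's quasi-likelihood test, DESeq2 1.42.0, other scalings, filters and blocks, and leaving out each library. The study's methods describe the 2 time courses of each pre-treatment as biological replicates.

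The members, the lists of other autophagy genes and the motifs were chosen with earlier results of these data known. Genes named outside the members were the highest and lowest called of each list at 60 min in ET, with *ATG41*, *UME6*, *RPH1* and *PEP4*, and the 5 genes most correlated with *ATG8*; *ATG10* and *ATG16* are named in addition, chosen after their values were seen. No column was left unmapped. Figures were drawn with matplotlib 3.10.9.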

Additional observations from a re-analysis of the deposited data

Results flagged for a closer look

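Results flagged here are the differences between the pre-treatments in the change from 0 min, called in the limma fit by the interaction term. At 60 min the log2 change was higher in ET than in FK506 by 2.26 for *ATG8*, 1.28 for *ATG1*, 1.12 for *ATG7*, 1.12 for *ATG9*, 1.12 for *ATG4*, 0.91 for *ATG14*, 0.89 for *ATG3* and 0.61 for *ATG13*. At 30 min it was higher by 0.99 for *ATG8*, 0.77 for *ATG7*, 0.71 for *ATG4*, 0.55 for *ATG1*, 0.52 for *ATG3* and 0.48 for *ATG9*. The 30 min difference of *ATG3* had an adjusted p of 0.0452 in limma and 0.082 in DESeq2, and it was lost on leaving out any of 7 of the 8 libraries in the comparison. That of *ATG9* was lost on leaving out any of 6 of the 8, at 0 or 30 min, and that of *ATG1* without ET 0 min replicate 1 or FK506 0 min replicate 2. *ATG5* and *ATG12* were not called by the interaction term, but *ATG5* was higher in ET by 0.42 in the direct comparison at 30 min (adjusted p = 0.00910). How that direct call depends on single libraries is not reported here.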

How the results depend on the processing

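Over 14 comparisons and 10 genes, 2360 alternative values were computed: 58 lost the call, 28 gained it, and 0 changed direction while called. Values with a whole replicate number left out carry no test, and 32 of them moved beyond a limit set from the SE. The other 2242 were counted as unchanged. That count includes changes of sign among values not called, such as *ATG5* at 60 min in ET, -0.04 in the main fit and 0.19 on raw library totals. Without the replicate block, the counts of members called were within 1.5 times of those with it in all 14 comparisons, and only *ATG13* at 10 min in FK506 gained a call (0.32, adjusted p = 0.0449). With the time course as a fixed term in place of the replicate block, *ATG13* alone gained calls, at 10 min in ET (adjusted p = 0.0427) and FK506 (0.0337), for the ET step from 10 to 30 min (0.0420), the FK506 step from 30 to 60 min (0.0455) and the difference at 30 min (0.0267). Same-numbered libraries correlated at -0.05 to 0.23 in their deviations (12 of 28 pairs over 0.1), so the numbers were not shown to pair. Requiring a log2 change of at least 1, members called fell from 7 to 2 at 10 min and from 9 to 5 at 30 min in ET (5.69% and 9.14% of all genes), from 8 to 1 and from 6 to 1 in FK506 (5.38% and 4.22%), from 6 to 0 and from 8 to 5 for the ET minus FK506 differences at 30 and 60 min (1.13% and 6.24%), from 4 to 0 for each step from 10 to 30 min (1.16% higher in ET, 3.43% lower in FK506), and from 7 to 1 for the FK506 step from 30 to 60 min (1.61% lower). Raw library totals gave 7 members instead of 4 for the ET step from 10 to 30 min, and 31.3% of all genes instead of 18.9%. Leaving out single libraries gave 0 to 1 members for FK506 at 60 min, 3 to 6 for the difference at 30 min, 7 to 8 for that at 60 min, 6 to 8 for ET at 60 min and 2 to 4 for the ET step from 10 to 30 min. Causes of these changes were not tested. The direct comparisons of ET with FK506 at 10, 30 and 60 min were not among the 14 comparisons. The lowest counts were 103 for *ATG8* and 109 for *ATG12* and *ATG14*.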

Other observations

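The list headed transcription regulators of autophagy held 11 genes. It also held *ATG41*, counted among the 11, which encodes an Atg9-binding protein rather than a transcription regulator. At 60 min in FK506, 2 of the 11 were higher (*GAT1* and *TUP1*) and 3 lower (*UME6*, *PHO23* and *ATG41*), against 13.1% and 15.7% of all genes. The difference between the changes at 60 min was called higher in ET for 2 and lower for 2, against 24.0% and 27.9%. In ET at 60 min, 3 of the 11 were higher (*GLN3*, *GAT1* and *ATG41*) and 6 lower. In that TMM-scaled fit the shares of all genes were 33.6% and 34.7%. Raw library totals moved the shares of all genes to 47.9% and 24.7%, and counts of this list on that scaling are not given here. *ATG41*, whose product binds Atg9 and whose gene rises in starvation, went from 17.7 ± 0.79 to 48.9 ± 8.70 CPM in ET and, after FK506, from 16.02 ± 1.03 to 11.7 ± 0.26 CPM (SD, n = 2), with log2 changes of 1.22 ± 0.14 and -0.57 ± 0.18 (SE) that were both called and opposite in sign. *GCN4*, the activator of amino acid synthesis genes, fell by 0.88 on the log2 scale in ET (SE 0.06) and was at -0.04 ± 0.06 in FK506. *UME6*, the repressor of *ATG8* known from growing cells, had a mean of 50.7 CPM before CaCl2 and 50.8 CPM after 60 min in ET, unscaled, and scaled log2 changes of -0.23 ± 0.09 in ET and -0.45 ± 0.09 in FK506, and the difference between them, 0.21 ± 0.12, was not called (adjusted p = 0.156). *RPH1*, which encodes another repressor of autophagy genes, was at 0.08 ± 0.07 in ET and -0.05 ± 0.08 in FK506, neither called. Whether any of these levels bears on the core genes was not tested.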
